A study of Mus musculus with 9 samples.

Results

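Reelin (Reln), its receptors Vldlr and Lrp8, and the adaptor Dab1 were followed in cortices of single mouse embryos at E12.5. The 4 genes were matched by symbol to the Ensembl identifiers of a table of 57010 genes, and all 4 passed the read filter (over 10 reads in each of the 9 embryos), which kept 13680 genes. Ctrl, cKO and dcKO embryos, 3 of each, were compared, with 1 library per embryo. Ctrl cortices are labelled WT. In Cnot3 cKO cortices the floxed Cnot3 alleles are removed by Emx1-Cre, and in Cnot3;Trp53 dcKO cortices floxed Trp53 is removed as well. Cnot3 encodes a subunit of the CCR4-NOT complex, which shortens poly(A) tails and so starts the decay of mRNA, and Trp53 encodes p53, a driver of apoptosis. Emx1-Cre is active in radial glial cells of the dorsal telencephalon and in their progeny, so cells of other origin in the dissected tissue keep both genes. Whether Ctrl embryos carried floxed alleles or Cre is not given in the sources used here. Both mutants are compared with the same 3 Ctrl embryos.

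Reelin is a large secreted glycoprotein, made in the early cortex mainly by Cajal-Retzius cells of the marginal zone. It binds the lipoprotein receptors VLDLR and ApoER2, the latter encoded by Lrp8, on migrating neurons and radial glia. Receptor clustering leads Src family kinases to phosphorylate DAB1 bound to the receptor tails, and loss of the ligand, of both receptors or of DAB1 disturbs the layering of cortical neurons.

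Total reads were 21193798 to 28869816 in Ctrl, 24835674 to 25946075 in cKO and 23275370 to 45073349 in dcKO. Cnot3 stood at 98.2 to 117.3 CPM (read counts scaled to library size with TMM factors) in Ctrl and at 14.6 to 17.3 CPM in cKO. In dcKO embryos 1, 2 and 3 it stood at 7.33, 48.2 and 19.04 CPM, and Trp53 at 15.1, 110 and 20.6 CPM against 215 to 254 CPM in Ctrl. The library labelled dcKO replicate 2 therefore kept 0.449 of the mean Ctrl level of Cnot3 and 0.469 of that of Trp53, and the dcKO values of the 4 genes against Ctrl are given with and without it. For the lists of genes read below, counts and calls without it are given for some of those that it changed. Across all genes edgeR's quasi-likelihood test called 2 genes in cKO and 0 in dcKO at an adjusted p under 0.05 and a log2 fold change beyond 1 in size, while 3693 and 3994 genes had an unadjusted p under 0.05 and DESeq2 called 1206 and 1157. When dcKO replicate 2 was left out, edgeR called 769 genes higher and 372 lower in cKO and 980 higher and 350 lower in dcKO. Of the 9 radial glia and 9 neuron markers, with summed levels given below, none was at 0 in any embryo.

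Per length of exon the 4 genes spanned a wide range in Ctrl. Dab1 had the highest level, 16.4 ± 0.69 RPKM (CPM per kilobase of exon, SD, n = 3). Lrp8 stood at 8.11 ± 1.08 RPKM and Reln at 3.74 ± 0.57 RPKM. Vldlr was the lowest at 0.966 ± 0.025 RPKM, at percentile 12.7 of 13561 genes with a known length. No pair of neighbours in this order overlapped among the Ctrl embryos. In dcKO the RPKM of Vldlr was 3.01 ± 1.33, that of Reln 2.21 ± 0.17, and their ranges overlapped.

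Reln encodes the ligand (ENSMUSG00000042453, chr5:21884454-22344702 on the minus strand of GRCm38). Its level in Ctrl embryos 1 to 3 was 100.9, 74.0 and 91.6 CPM. The cKO embryos had 122, 88.9 and 59.6 CPM, and so lay on both sides of the Ctrl range. The dcKO embryos had 50.8, 49.6 and 57.0 CPM, below every Ctrl and every cKO embryo. In cKO the log2 fold change against Ctrl was 0.02 (SE 0.25, 95% interval -0.53 to 0.57, edgeR adjusted p = 0.964). In dcKO it was -0.76 (SE 0.25, 95% interval -1.31 to -0.21, edgeR adjusted p = 0.0856), and DESeq2 gave an adjusted p of 0.0327 at -0.79. The cKO value was -0.26 without cKO replicate 1 and -0.09 without Ctrl replicate 2. In the 3 pairs of embryos whose codes share a number Reln was lower in the mutant, by log2 ratios of -0.18 and -0.31 for cKO and -0.69 for dcKO. With that number as a block the log2 fold change was -0.25 in cKO (edgeR adjusted p = 0.101) and -0.69 in dcKO (edgeR adjusted p = 0.00504), on 2 pairs and 1 pair. Of all tested genes 11.2% had every dcKO embryo below every Ctrl embryo, and 11.2% had an unadjusted edgeR p under 0.05 and a lower level in dcKO. The dcKO level differed from the cKO level by -0.78 (SE 0.25, edgeR adjusted p = 0.889, unadjusted p = 0.0102). In that comparison 2.38% of genes had an unadjusted p under 0.05 and a lower level in dcKO, and 3.63% had every dcKO embryo below every cKO embryo. The exact two-sided permutation test gave p = 0.1 for dcKO against Ctrl, the smallest that 3 against 3 embryos allow. Without dcKO replicate 2 the log2 fold change was -0.72 (edgeR adjusted p = 0.104), and DESeq2's adjusted p was then 0.0501. Without dcKO replicate 3 edgeR's adjusted p was 0.0225 against Ctrl and 0.0371 against cKO.

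**Figure D1:**
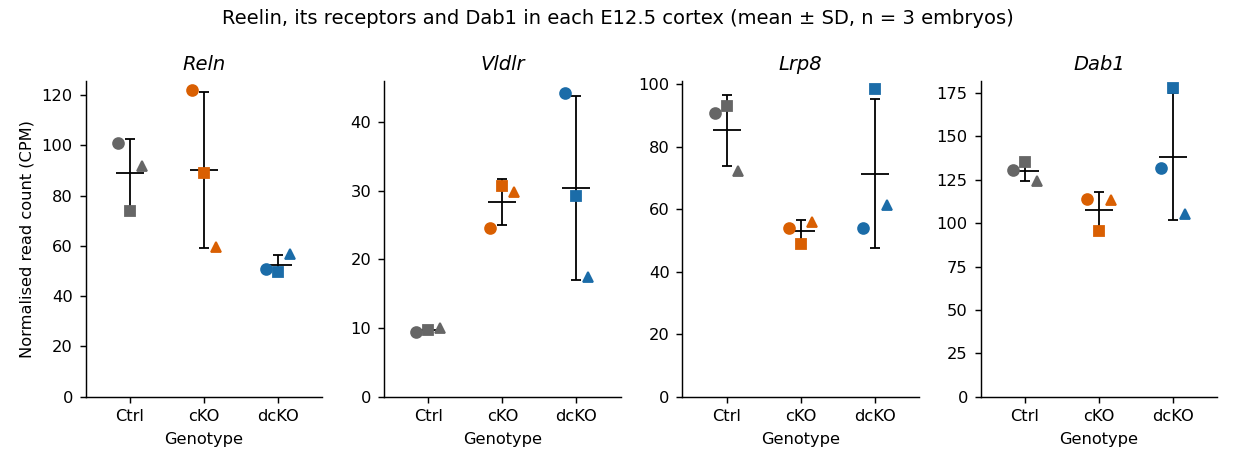
Normalised read counts (CPM, y axes from 0) of Reln, Vldlr, Lrp8 and Dab1 in Ctrl, cKO and dcKO cortices; circles, squares and triangles are embryos 1, 2 and 3, and black bars are the mean ± SD of 3 embryos. Vldlr lies at 9.46 to 9.95 CPM in Ctrl and at 17.5 CPM or more in every mutant embryo, and Reln is lowest in the 3 dcKO embryos.

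Because Reln is a product of a rare cell type, it was set beside 9 markers of Cajal-Retzius cells (Trp73, Lhx1, Lhx5, Calb2, Ebf2, Ebf3, Nhlh2, Ndnf and Cacna2d2). None of the 9 was at 0 in any embryo. Their summed level was 135 to 150 CPM in Ctrl, 180 to 209 CPM in cKO and 149 to 173 CPM in dcKO. In cKO 2 of the 9 had an unadjusted edgeR p under 0.05, both higher (Ndnf, log2 fold change 1.42, and Cacna2d2, 1.11), which is 2 of 9 beside 15.3% of all genes, and the median log2 fold change was 0.51. In dcKO 0 of 9 did, with a median of 0.27. With dcKO replicate 2 left out, 3 of 9 were higher in dcKO at that p (Lhx5, Ndnf and Cacna2d2, with log2 fold changes of 0.80 to 1.56), beside 21% of all genes, and the median was 0.45. Trp73, a transcription factor gene of Cajal-Retzius cells, was at 21.8 CPM in Ctrl, 29.2 CPM in cKO and 17.6 CPM in dcKO on average. Bulk tissue cannot tell fewer cells of a type from less RNA per cell.

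The log2 level of Reln relative to the mean log2 level of these markers was 3.38, 2.97 and 3.51 in Ctrl embryos 1 to 3. It was 3.17, 2.38 and 2.26 in the cKO embryos and 2.02, 2.56 and 2.20 in the dcKO embryos. All dcKO embryos lay below all Ctrl embryos, and cKO replicate 1 lay within the Ctrl range. The difference from Ctrl was -1.02 in dcKO (exact permutation p = 0.1) and -0.68 in cKO (exact permutation p = 0.2). Without dcKO replicate 2 the dcKO difference was -1.18. In cKO the marker sum was above that of every Ctrl embryo in the same libraries in which the mean of Reln was 90.1 CPM against 88.9 CPM in Ctrl, and the part of cell number in the level of Reln was not tested.

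**Figure D2:**
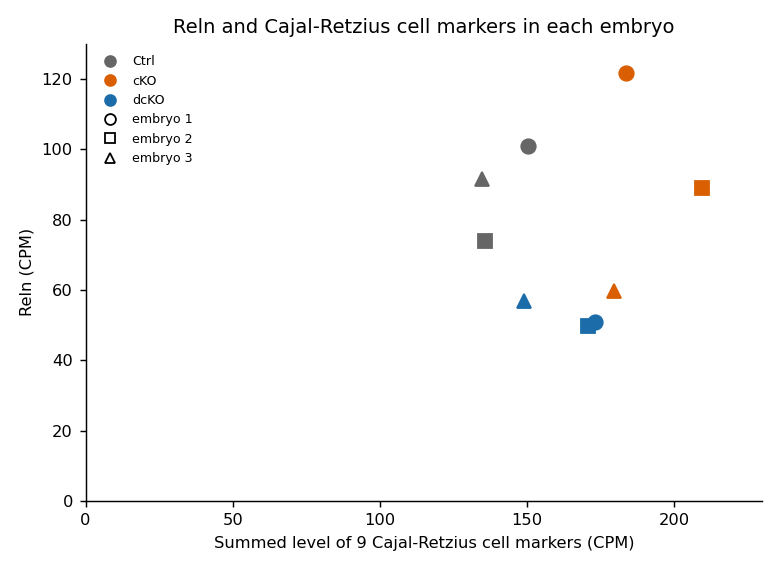
Reln (CPM, y axis) against the summed CPM of 9 Cajal-Retzius cell markers (x axis) in the 9 embryos, coloured by genotype with a symbol per embryo number. The dcKO embryos have 49.6 to 57.0 CPM of Reln at marker sums of 149 to 173 CPM, whereas Ctrl embryos have 74.0 to 100.9 CPM at 135 to 150 CPM.

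VLDLR and ApoER2 share an Asn-Pro-x-Tyr motif in the cytoplasmic tail, the docking site of DAB1. Its coding bases were read from GENCODE M21 on GRCm38 and are shown in capitals with 6 bases on either side.
Vldlr: tttgacAATCCTGTGTACttgaag
Lrp8: ttcgacAACCCAGTGTACaggaaa
Within the 12 capital bases Lrp8 differed from Vldlr at 2 positions. The motif begins at codon 834 of 873 in Vldlr and at codon 855 of 955 in Lrp8, in the longest coding transcript of each gene.

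Vldlr (ENSMUSG00000024924, chr19:27216484-27254231 on the plus strand of GRCm38) had the clearest difference between genotypes of the 4 genes. The Ctrl embryos had 9.46, 9.77 and 9.95 CPM, from 232, 197 and 276 reads. The cKO embryos had 24.6, 30.7 and 29.8 CPM, and the dcKO embryos 44.2, 29.2 and 17.5 CPM. Every mutant embryo was above every Ctrl embryo, and the dcKO embryos spread on both sides of the cKO range. The level was 2.91 times that of Ctrl in cKO (95% interval 1.80 to 4.73) and 3.12 times in dcKO (95% interval 1.92 to 5.07). With the number shared by embryo codes as a block, the log2 difference was 1.65 in cKO and 0.82 in dcKO, below the log2 interval of 0.94 to 2.34 without the block, and the dcKO value then rests on 1 pair, Ctrl replicate 3 and dcKO replicate 3. What this number stands for is not given in the sources used here.

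On the log2 scale these differences were 1.54 (SE 0.31) in cKO and 1.64 (SE 0.31) in dcKO. edgeR's adjusted p was 0.0509 in cKO and 0.0502 in dcKO, just short of the threshold of 0.05. DESeq2, the tool of the study, gave adjusted p-values of 3.70e-04 and 1.69e-04. Vldlr is thus a call of DESeq2 in both mutants, at a log2 fold change of 1.53 and 1.62. DESeq2 called 4.95% of genes higher in cKO and 4.67% in dcKO, and edgeR called 0.0146% and 0%. The share of genes with every mutant embryo above every Ctrl embryo was 29.2% in cKO and 15.6% in dcKO, and the exact permutation p for Vldlr was 0.1 in each. By unadjusted edgeR p, under 0.05 and higher in 15.3% of genes in cKO and 18% in dcKO, Vldlr ranked 134 and 91 of 13680 genes. Without dcKO replicate 2 the dcKO difference was 1.67 and edgeR's adjusted p was 0.0131. The cKO difference stayed at 1.54 when any 1 dcKO embryo was left out of the shared fit, at an edgeR adjusted p of 0.0124, 0.0141 and 0.00510 without dcKO replicate 1, 2 and 3. Leaving out any 1 Ctrl or cKO embryo gave 1.48 to 1.64 with an edgeR adjusted p of 0.130 to 0.211. Without dcKO replicate 1 the dcKO difference was 1.27 (edgeR adjusted p = 0.116). Between the mutants the log2 difference was 0.10 (95% interval -0.58 to 0.78, edgeR adjusted p = 0.987). It was -0.84 with the block of shared embryo numbers (edgeR adjusted p = 0.0729), on the single dcKO pair, and 0.57 with limma voom (adjusted p = 0.0909), so its direction differed between fits. The study picked Vldlr from these embryos for decay measurements, so its difference here is not independent evidence.

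Marker lists of other cell types were read in the same libraries. Endothelium markers (Cldn5, Pecam1, Cdh5, Kdr, Flt1 and Esam) summed to 206 to 268 CPM in Ctrl, 192 to 271 CPM in cKO and 129 to 140 CPM in dcKO. In dcKO 4 of these 6 were lower at an unadjusted edgeR p under 0.05 and 5 were below every Ctrl embryo (11.2% of all genes for each count), and in cKO 0 were. Radial glia markers summed to 2968 to 3395 CPM in Ctrl, 2905 to 3413 CPM in cKO and 3079 to 3454 CPM in dcKO. Their mean log2 CPM was 7.24 to 7.54 in Ctrl, 7.01 to 7.08 in cKO and 7.01 to 7.65 in dcKO. Vim, the most abundant of them, was higher in every cKO embryo (1659 to 2030 CPM) than in Ctrl (1159 to 1496 CPM) while 5 of the 9 were below every Ctrl embryo in cKO, as were 28% of all genes. The summed level of 8 markers of the cortical hem and choroid plexus was higher in every mutant embryo than in every Ctrl embryo, at 153 to 486 CPM in cKO and 200 to 515 CPM in dcKO against 84.0 to 137 CPM in Ctrl, and Ttr, a choroid plexus gene, had no read in any Ctrl embryo. Of the 6 of these that were tested, 5 in cKO and 4 in dcKO were higher at an unadjusted edgeR p under 0.05 (15.3% and 18% of all genes), and in each mutant 4 had every mutant embryo above every Ctrl embryo (29.2% and 15.6% of all genes). The 6 meninges markers summed to 780 to 858 CPM in Ctrl, 452 to 694 CPM in cKO and 324 to 518 CPM in dcKO, with log2 fold changes of -1.28 to 0.32 in cKO, where 3 of 6 were below every Ctrl embryo (28% of all genes) and 1 was lower at an unadjusted edgeR p under 0.05 (11.7% of all genes), and -1.86 to 0.09 in dcKO, where 3 were lower at that p (11.2% of all genes). Red blood cell and microglia markers were lower in sum in every dcKO embryo than in every Ctrl embryo, at 4287 to 5865 against 6471 to 9215 CPM and 14.4 to 31.6 against 36.2 to 43.6 CPM. Of the 6 red blood cell markers 3 were lower in dcKO at an unadjusted edgeR p under 0.05, DESeq2 called the same number lower, and 1 was below every Ctrl embryo. Of the 5 microglia markers tested 1 was lower at that p and 3 were below every Ctrl embryo (11.2% of all genes for each count). In the fit that left out dcKO replicate 2 the counts lower at that p were 5 for endothelium, 1 for red blood cells and 0 for microglia, beside 13.6% of all genes. DESeq2 then called 1 red blood cell marker lower, beside 4.42% of all genes. In cKO the sums of red blood cell and microglia markers were 8013 to 12193 CPM and 37.2 to 76.3 CPM. The part of these cells in the levels of Vldlr and Reln was not tested.

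**Figure D3:**
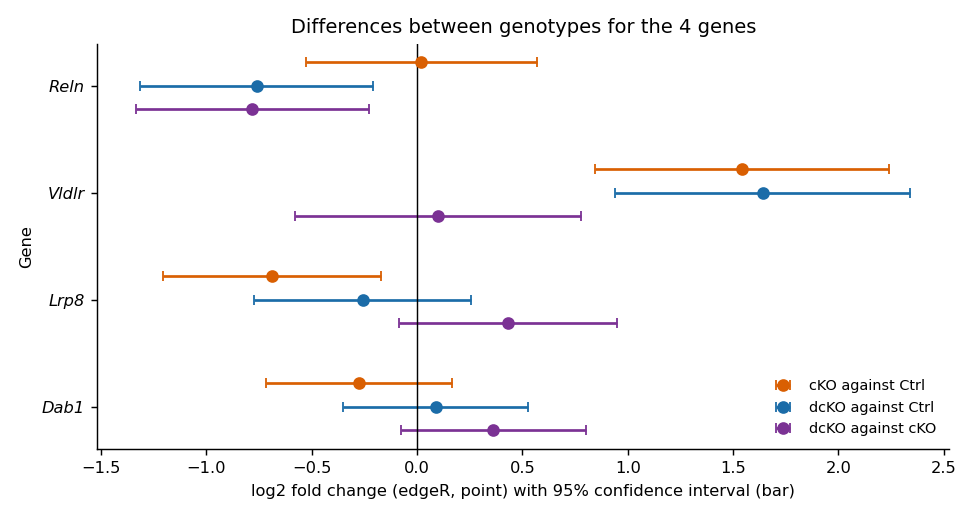
log2 fold changes (x axis, edgeR) of the 4 genes (y axis) for cKO against Ctrl, dcKO against Ctrl and dcKO against cKO, with bars for 95% confidence intervals. The intervals of Vldlr against Ctrl lie above 0 in both mutants, those of Reln lie below 0 for dcKO against either group, and that of Lrp8 lies below 0 in cKO.

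Lrp8 (ENSMUSG00000028613, chr4:107802261-107876840 on the plus strand of GRCm38) encodes the second Reelin receptor. The Ctrl embryos had 90.7, 92.9 and 72.1 CPM and the cKO embryos 54.1, 48.9 and 55.8 CPM. The dcKO embryos had 53.9, 98.4 and 61.5 CPM. Every cKO embryo was below every Ctrl embryo, as were dcKO replicates 1 and 3, whereas dcKO replicate 2 was above all of them. That library also held more reads of 3 of the 6 subpallial markers listed, with 80 reads of Gad2, 47 of Dlx1 and 88 of Dlx2 against at most 8 of each in the other 8 embryos, and their part in its levels of Lrp8 and Dab1 was not tested. In cKO the log2 fold change was -0.69 (SE 0.23, 95% interval -1.21 to -0.17, edgeR adjusted p = 0.101), and DESeq2's adjusted p was 0.0535. In cKO 28% of genes had every embryo below every Ctrl embryo, and 11.7% had an unadjusted edgeR p under 0.05 and a lower level. For dcKO the log2 fold change was -0.26 (SE 0.23, edgeR adjusted p = 0.475). Leaving out dcKO replicate 2 gave -0.56 (edgeR adjusted p = 0.0464), and the cKO value was -0.69 (edgeR adjusted p = 0.0162). In the 3 pairs of embryos whose codes share a number Lrp8 was lower in the mutant. The log2 ratios were -0.89 and -0.74 for cKO and -0.23 for dcKO. With that number as a block the log2 fold change was -0.81 in cKO (edgeR adjusted p = 1.51e-05), on 2 pairs, and -0.23 in dcKO, on 1 pair. The antisense genes Lrp8os1 and Lrp8os2 overlap Lrp8, and Lrp8os2 had 33 to 153 reads per embryo. The library kit marks strand, but whether counting used it is not given in the sources used here.

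The read ratio of the receptors was taken within each embryo, which needs no scaling between libraries. It was chosen with the differences of both genes known, so it restates them and is given as a description with no test. In Ctrl there were 0.104, 0.105 and 0.138 Vldlr reads per Lrp8 read. The cKO embryos had 0.454, 0.629 and 0.534, and the dcKO embryos 0.820, 0.297 and 0.285. All mutant embryos lay above all Ctrl embryos. The ratio was 4.65 times that of Ctrl in cKO and 3.58 times in dcKO (geometric means). Without dcKO replicate 2 the log2 difference in dcKO was 2.07, against 1.84 with it. Lrp8 still had more reads than Vldlr in each of the 9 embryos.

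**Figure D4:**
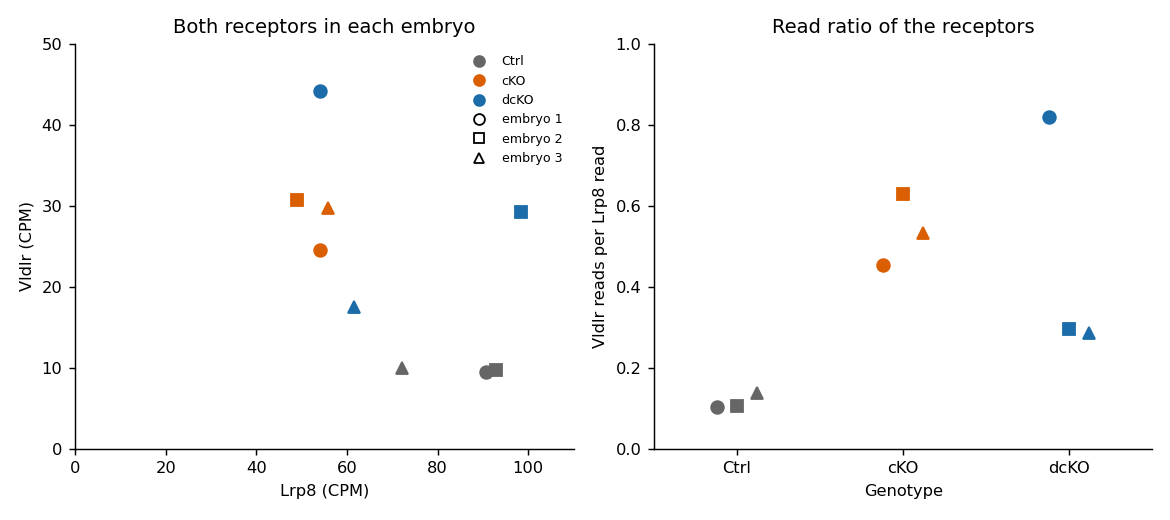
Left, Vldlr (CPM, y axis) against Lrp8 (CPM, x axis) in each embryo; right, Vldlr reads per Lrp8 read by genotype, with a point per embryo. The ratio is 0.104 to 0.138 in Ctrl, 0.454 to 0.629 in cKO and 0.285 to 0.820 in dcKO.

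The 2 receptor mRNAs also differ in features linked to mRNA decay, read from GENCODE M21. G or C stood at 50.7% of the last codon positions in Vldlr (percentile 24.3 of 12077 tested genes) and at 71.4% in Lrp8 (percentile 85.5), against a median of 60.4%. The longest annotated 3′ UTR of Vldlr is 5091 bases, at percentile 95.2, and that of Lrp8 is 1588 bases. Dab1 was near Vldlr in both features, with 52.3% (percentile 27.8) and 3347 bases (percentile 85.8), while Reln had 58.5% (percentile 44.7) and 1019 bases (percentile 41.6). The motif TGTANATA, the core that Pumilio proteins bind, was searched on the sense strand. It occurs 4 times in the Vldlr 3′ UTR, and 4.52% of 974 genes with a 3′ UTR within 25% of its length hold as many. The 4 sites, shown with the motif in capitals, lie in exon 19 of 19, the last of them near the end of the transcript.
Vldlr site 1 (chr19:27249299-27249318, plus strand, GRCm38): tactttTGTAAATAttcttg
Vldlr site 2 (chr19:27249460-27249479, plus strand, GRCm38): cccaccTGTACATAcattgt
Vldlr site 3 (chr19:27249484-27249503, plus strand, GRCm38): gccaccTGTACATAtcccag
Vldlr site 4 (chr19:27254153-27254172, plus strand, GRCm38): ctgaccTGTAGATAattatt
Lrp8 site 1 (chr4:107872769-107872788, plus strand, GRCm38): ttttttTGTAAATAaaatta
Dab1 site 1 (chr4:104742812-104742831, plus strand, GRCm38): ttttttTGTAAATAtaaatg
Lrp8 and Dab1 hold 1 match each and Reln holds 0, while 29.0%, 47.1% and 20.3% of genes of like 3′ UTR length hold at least 1. The AU-rich motif TATTTAT was found at 1 place in Vldlr, at 2 places in Lrp8 and at 0 in Reln and Dab1. At least 1 match was held by 62.8% of genes of like length for Vldlr, 34.3% for Lrp8, 25.3% for Reln and 53.3% for Dab1, and as many as the 2 of Lrp8 by 11.1%. These matches are letters in an annotated sequence, and binding was not measured. G or C at the last codon position is not the study's measure of codon optimality, which was derived from mRNA half-lives. The part of these features in the levels of the 4 genes was not tested.

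Dab1 (ENSMUSG00000028519, chr4:103619359-104744844 on the plus strand of GRCm38), the adaptor on which both receptors converge, passed neither edgeR's nor DESeq2's threshold against Ctrl in the fits of all 9 embryos without a block. The Ctrl embryos had 131, 135 and 124 CPM, the cKO embryos 114, 95.5 and 113 CPM, and the dcKO embryos 132, 178 and 105 CPM. Every cKO embryo was below every Ctrl embryo, as for 28% of all genes, and the dcKO embryos lay on both sides of the Ctrl range. The log2 fold change was -0.27 in cKO (95% interval -0.71 to 0.17, edgeR adjusted p = 0.401) and 0.09 in dcKO (95% interval -0.35 to 0.53, edgeR adjusted p = 0.785). Without dcKO replicate 2 the dcKO value was -0.13 (edgeR adjusted p = 0.560). In cKO edgeR's adjusted p was 0.0308 when only the 6 embryos compared were fitted (-0.27) and 0.0153 with the number shared by embryo codes as a block (-0.35). Dab1 was lower in the mutant embryo of each of the 3 pairs that share such a number, by log2 ratios of -0.45 and -0.25 for cKO and -0.24 for dcKO. Between the mutants the log2 difference was 0.36 for Dab1 and 0.43 for Lrp8, each with an edgeR adjusted p of 0.889, and without dcKO replicate 2 it was 0.14 and 0.12. The 9 neuron markers summed to 1542 to 1960 CPM in Ctrl, 1146 to 1600 CPM in cKO and 977 to 1932 CPM in dcKO, the highest dcKO sum being that of replicate 2. In cKO 1 of the 9 was higher and 0 lower at an unadjusted edgeR p under 0.05, beside 15.3% and 11.7% of all genes, and 5 of 9 were below every Ctrl embryo, beside 28%. In dcKO 0 were higher and 1 lower, beside 18% and 11.2%, and without dcKO replicate 2, 0 were higher and 3 lower, beside 21% and 13.6%. The part of neuron number in the levels of Lrp8 and Dab1 was not tested.

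Across the 9 embryos the log2 levels of Lrp8 and Dab1 had a Pearson r of 0.78, those of Vldlr and Lrp8 -0.62, and those of Reln and Vldlr -0.46. These values describe 9 libraries of 3 genotypes, and embryos of a genotype are not independent points. The genes most like each member over the same 9 embryos were Tspyl1 (r = 0.995), Klhl13 (r = 0.993) and Bmt2 (r = 0.993) for Vldlr. For Reln they were Cdk5r2 (r = 0.953), Map4 (r = 0.934) and Itsn1 (r = 0.901). For Lrp8 they were Lmnb1 (r = 0.983), Mapkap1 (r = 0.981) and Sem1 (r = 0.975), and for Dab1 Gm18194 (r = 0.986), Gm13232 (r = 0.984) and Hmgb2 (r = 0.983). Cdk5r2, an activator of Cdk5, which phosphorylates DAB1 and other migration proteins, also belongs to the listed pathway. Its level was 1.72 CPM in Ctrl, from 28 to 53 reads per embryo, and the dcKO embryos had 17 to 23 reads. Cdk5r2 differed from Ctrl by an edgeR log2 fold change of -1.47 in dcKO (DESeq2 adjusted p = 0.0317) and -0.07 in cKO. Without dcKO replicate 2 the edgeR value in dcKO was -1.43 (edgeR adjusted p = 0.0770, DESeq2 adjusted p = 0.0497).

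A list of 73 other genes of the pathway was read beside the members, and 70 of them were tested (Lrp1b, Adamts2 and Adamts5 were not). In cKO 6 were higher and 14 lower at an unadjusted edgeR p under 0.05, and in dcKO 7 were higher and 16 lower. As shares of the list these are 8.57% and 20% in cKO and, in dcKO, 22.9% lower beside 7 of 70 higher, beside the shares over all genes given above (15.3% and 11.7%, 18% and 11.2%). The median log2 fold change of the list was -0.17 in cKO and -0.09 in dcKO, against 0.01 and 0.11 over all genes. edgeR called 0 of the 70 in either mutant. DESeq2 called 2 higher and 6 lower in cKO and 1 higher and 9 lower in dcKO. It called 3.88% of all genes lower in cKO and 3.8% in dcKO. The edgeR counts moved with single embryos and with the fit. Leaving out 1 embryo at a time gave 5 to 9 higher and 7 to 23 lower in cKO and 3 to 15 higher and 9 to 32 lower in dcKO, and limma voom gave 18 higher and 33 lower in cKO. Calls over all genes moved as well. Without dcKO replicate 3 edgeR called 1157 genes higher and 2088 lower in dcKO, against 0 and 0 with all embryos. Shares of all genes at the unadjusted p were counted only with all embryos and without dcKO replicate 2. The dcKO counts of the list without replicate 2 were 9 higher and 20 lower, beside 21% and 13.6% of all genes, and DESeq2 then called 2 higher and 9 lower, beside 7.57% and 4.42%.

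**Figure D5:**
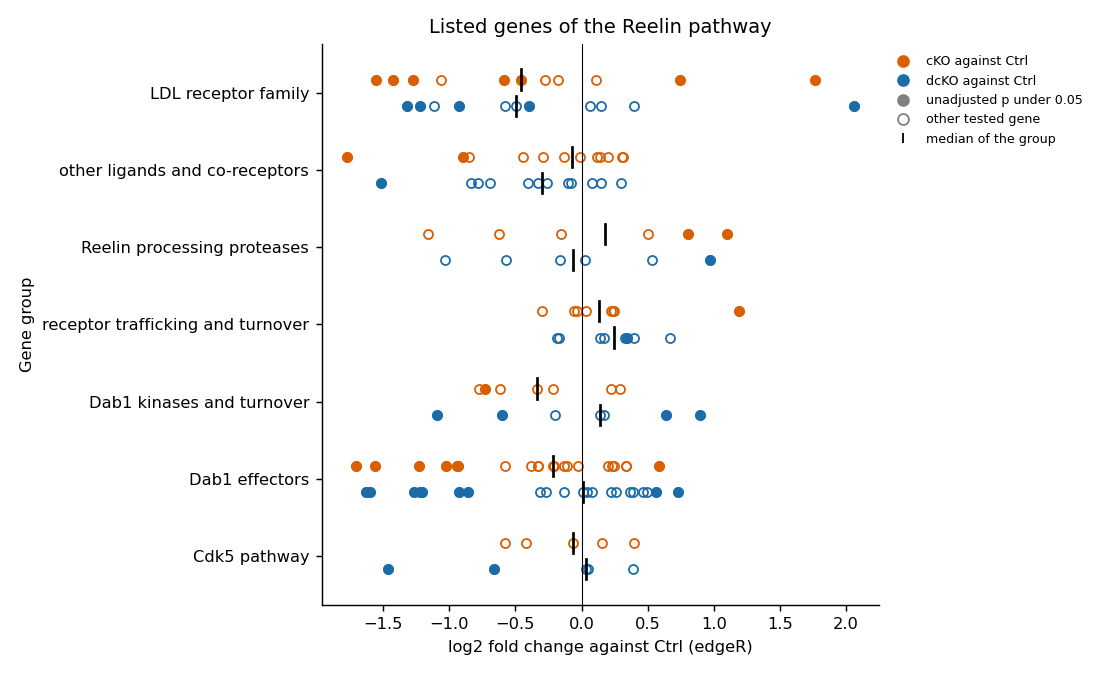
log2 fold changes against Ctrl (x axis, edgeR) of 70 listed genes in 7 groups of the pathway (y axis), for cKO and dcKO. Filled points have an unadjusted p under 0.05 and black ticks are group medians. Lrp2 has 1.77 in cKO and 2.06 in dcKO, and Ephb2 has -1.77 and -1.52.

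Among the other receptors of the same family, of which 11 were tested, 2 were higher and 5 lower in cKO and 1 was higher and 4 lower in dcKO at an unadjusted edgeR p under 0.05, beside 15.3% and 11.7% of all genes in cKO and 18% and 11.2% in dcKO. Lrp2, an endocytic receptor of the forebrain midline and choroid plexus, had 1.26 to 2.34 CPM in Ctrl, 3.14 to 8.14 CPM in cKO and 5.34 to 8.83 CPM in dcKO. It differed from Ctrl by an edgeR log2 fold change of 1.77 in cKO (edgeR SE 0.43, DESeq2 adjusted p = 0.00248) and 2.06 in dcKO (edgeR SE 0.44, DESeq2 adjusted p = 4.01e-04), from 31 to 65 reads in Ctrl embryos. The summed level of the hem and choroid plexus markers was higher in the same embryos, and its part in the level of Lrp2 was not tested. DESeq2 called Lrp3 lower in cKO, and Lrp1 and Lrp5, a co-receptor of Wnt ligands, lower in dcKO. All 3 had every cKO embryo below every Ctrl embryo, with log2 fold changes of -1.42, -1.06 and -1.28 in cKO and -1.12, -1.22 and -1.32 in dcKO. In dcKO 2 of the 11 receptors were higher and 3 lower at an unadjusted edgeR p under 0.05 once replicate 2 was left out. The shares of all genes were then 21% and 13.6%. DESeq2 then called neither Lrp1 nor Lrp5 in dcKO. Its log2 fold changes were then -0.99 and -1.01 (DESeq2 adjusted p of 0.115 or more), against -1.26 and -1.35 with all embryos. For Lrp2 DESeq2 then gave 1.97 (DESeq2 adjusted p = 7.93e-04), against 2.04 with all embryos. In dcKO replicate 3 stood apart, with Lrp3 at 52.2 CPM and Lrp5 at 62.1 CPM within the Ctrl ranges and Lrp1 at 106 CPM, while replicates 1 and 2 had 10.5 to 31.9 CPM of the 3 genes. Between the mutants edgeR's adjusted p was 0.967 or more for each.

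Among ligands and co-receptors, Ephb2, a receptor for ephrin-B ligands, was at 225 to 295 CPM in Ctrl, 67.2 to 81.7 CPM in cKO and 42.2 to 123 CPM in dcKO. It differed from Ctrl by an edgeR log2 fold change of -1.77 in cKO (edgeR SE 0.33, DESeq2 adjusted p = 1.02e-04) and -1.52 in dcKO (edgeR SE 0.33, DESeq2 adjusted p = 7.97e-04). Dab2, an adaptor of endocytosis that binds the same kind of receptor tail as DAB1, was at 19.4 to 30.7 CPM in Ctrl and 46.3 to 73.3 CPM in cKO (edgeR log2 fold change 1.19, edgeR SE 0.32, DESeq2 adjusted p = 0.00977). Its dcKO embryos had 43.1, 22.7 and 20.0 CPM, and the log2 fold change was 0.17.

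Downstream of DAB1, Rapgef1, the exchange factor for Rap1, had log2 fold changes of -1.03 in cKO and -1.22 in dcKO. Akt1, a kinase of the phosphoinositide pathway, had -1.56 and -1.63, and Notch1, a receptor known to interact with Reelin signalling, had -1.71 and -1.60. In dcKO embryos 1, 2 and 3 Akt1 stood at 52.0, 93.4 and 217 CPM and Notch1 at 20.0, 48.2 and 120 CPM, so that replicate 3 was the highest and lay nearest to the lowest Ctrl embryo (285 and 142 CPM). DESeq2 called these 3 lower in both mutants, and edgeR's adjusted p for them was 0.0509 to 0.0806 in cKO and 0.0502 to 0.0867 in dcKO. Src, a kinase of DAB1, and Mapt, the microtubule protein tau, were called lower by DESeq2 in dcKO. Src had -0.77 in cKO, where every embryo was below every Ctrl embryo, and -1.10 in dcKO, where replicate 3 (93.5 CPM) lay within the Ctrl range (85.9 to 126 CPM). Mapt had -0.58 and -1.21. Between the mutants neither passed (edgeR adjusted p = 0.928 and 0.889). DESeq2 no longer called Src in dcKO when replicate 2 was left out (DESeq2 log2 fold change -0.87, against -1.13 with all embryos, DESeq2 adjusted p = 0.0927). It then called Cfl1, the actin-severing protein cofilin, and Dcx, the microtubule protein doublecortin of young neurons, lower, at -1.22 and -1.06. In dcKO replicate 2 Dcx was at 385 CPM, against 87.6 to 91.3 CPM in the other dcKO embryos and 180 to 185 CPM in Ctrl. The effectors counted as a group had 1 higher and 6 lower of 21 in cKO and 2 higher and 7 lower in dcKO at an unadjusted edgeR p under 0.05, beside 15.3% higher and 11.7% lower of all genes in cKO and 18% and 11.2% in dcKO. Without dcKO replicate 2 the effectors had 1 higher and 7 lower in dcKO, beside 21% and 13.6% of all genes. Of the 7 kinases and turnover genes of DAB1, 0 were higher and 1 lower in cKO, and 2 were higher and 2 lower in dcKO. With dcKO replicate 2 left out, 1 of them was higher and 4 were lower in dcKO, beside 21% and 13.6% of all genes.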

How the data were processed

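RNA-seq libraries of 9 cortices, each from a single E12.5 embryo, were used. The authors deposited raw counts per gene. The submitters' processing notes name FastQC, cutadapt, STAR, featureCounts and DESeq2, and the build mm39. Groups and replicate numbers came from the sample titles. Here edgeR 4.0.16 (TMM, quasi-likelihood, all 9 embryos, no covariate) in R 4.3.3 tested the 13680 genes that had over 10 reads in each embryo, with Benjamini-Hochberg adjustment. Alternatives were DESeq2 1.42.0, limma 3.58.1 voom, other factors and filters, a GC correction, a block, and leaving embryos out. The block was the replicate number or the number shared by some embryo codes (the embryo-code block). Single values had exact two-sided permutation tests. Depth was 21193798 to 45073349 reads per embryo. log2 CPM values used a prior count of 0.5. Lengths, coordinates and sequences came from GENCODE M21 (GRCm38), not the build of the counts; 13561 tested genes matched. Python 3.11.15 handled sequences.

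The members and lists were chosen with earlier results of these data known. Named from the pathway lists were the genes with the smallest edgeR p in each direction in cKO, 2 per direction, and those DESeq2 called; 1 gene that met this rule is not reported here. Also named were the 3 genes with the highest Pearson r with each member, all Cajal-Retzius markers, and Cnot3 and Trp53. Ttr was named after its values were seen, as were Cfl1 and Dcx, and the fits of listed genes without dcKO replicate 2 were added then. The edgeR, DESeq2, voom, replicate block and GC-corrected fits were tested on simulated counts.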

Additional observations from a re-analysis of the deposited data

How the results depend on the processing

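The log2 difference of Vldlr from Ctrl was above 0 under every alternative in both mutants, and its adjusted p was on either side of the threshold, between 3.11e-07 and 0.128 (cKO) or 2.93e-05 and 0.200 (dcKO) over the alternatives that did not leave out an embryo. In this section a result passes when its adjusted p is under 0.05, also where its log2 difference is within 1 in size. Vldlr passed in cKO with upper-quartile factors (1.65, where the median of all genes moved to 0.12), no filter (1.48), DESeq2 (1.53), limma voom with quality weights (1.47), only the embryos compared (1.54), the embryo-code block (1.65) and the GC correction (1.29). It passed in dcKO with no filter (1.55), DESeq2 (1.62), voom (2.04), the embryo-code block (0.82) and the GC correction (1.19). Lrp8 in cKO passed with voom (-0.72), only the embryos compared (-0.69), the embryo-code block (-0.81) and the GC correction (-0.88), and in dcKO with voom (-0.61). Dab1 in cKO passed with voom (-0.27), only the embryos compared (-0.27) and the embryo-code block (-0.35). Reln in dcKO passed with DESeq2 (-0.79) and the embryo-code block (-0.69). The embryo-code block uses the number shared by some embryo codes, so its cKO values rest on 2 pairs and its dcKO values on 1, with 1 residual degree of freedom.

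Values near 0 changed sign. Reln in cKO was -0.042 with filterByExpr, -0.040 with no filter, -0.0019 with the replicate block, -0.25 with the embryo-code block, -0.029 with the GC correction and -0.059 with the replicate block and GC correction. Dab1 in dcKO was -0.014 with no filter, -0.24 with the embryo-code block, -0.20 with the GC correction, and -0.21 with the replicate block and GC correction. Vldlr in dcKO against cKO was -0.84 with the embryo-code block, -0.092 with the GC correction and -0.12 with the replicate block and GC correction. Same-numbered embryos of different genotypes are different animals, and their deviations from the group means had a mean correlation of -0.169 (9 pairs, 1 above 0.1), so the numbers were not treated as pairs. The replicate block changed no other call, and the cause of these changes was not tested.

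DESeq2 without dcKO replicate 2, chosen after seeing the data, gave 1.54 (cKO) and 1.63 (dcKO) for Vldlr, -0.69 and -0.60 for Lrp8, which then passed in both mutants (adjusted p = 7.34e-04 and 0.0122, against 0.0535 and 0.481 with all embryos), -0.17 for Dab1 in dcKO, and 23 listed pathway genes lower in cKO. Counts of listed pathway genes at an unadjusted p under 0.05 in cKO were 18 higher and 33 lower with voom, 15 and 29 with only the embryos compared, 13 and 32 with the embryo-code block, and 23 lower with the GC correction. In dcKO they were 17 and 32 with voom, 15 and 25 with the embryo-code block, 3 higher with only the embryos compared, and 4 higher with the replicate block and GC correction. The share of all genes at that p was not counted in these fits. Calls over all genes also differed between fits. At an adjusted p under 0.05 and a log2 fold change beyond 1, voom called 957 genes higher and 911 lower in cKO. In dcKO voom called 1491 and 2177. The main fit called 2 and 0 in cKO and 0 and 0 in dcKO.

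When single embryos were left out, the log2 difference against Ctrl in cKO ranged from -0.26 to 0.23 for Reln, 1.48 to 1.64 for Vldlr, -0.79 to -0.62 for Lrp8 and -0.33 to -0.19 for Dab1. In dcKO it ranged from -0.88 to -0.66 for Reln, 1.27 to 1.92 for Vldlr, -0.56 to -0.092 for Lrp8 and -0.13 to 0.25 for Dab1. Between the mutants it ranged from -1.04 to -0.50 for Reln, -0.28 to 0.37 for Vldlr, 0.12 to 0.60 for Lrp8 and 0.14 to 0.53 for Dab1. Counts of listed genes ranged from 5 to 9 higher and 7 to 23 lower in cKO, and 3 to 15 higher and 9 to 32 lower in dcKO, while calls over all genes also moved between these fits. Adjusted p-values of edgeR passed the threshold for Vldlr in cKO without any 1 dcKO embryo (0.00510 to 0.0141), for Vldlr in dcKO without dcKO replicate 2 (0.0131), for Lrp8 in cKO without dcKO replicate 2 (0.0162) or 3 (0.0294), for Lrp8 in dcKO without replicate 2 (0.0464) and for Dab1 between the mutants without dcKO replicate 3 (0.0307). Reln in cKO changed sign without Ctrl replicate 2 or cKO replicate 1, Dab1 in dcKO without dcKO replicate 2, and Vldlr between the mutants without dcKO replicate 1. The lower counts of listed genes came without Ctrl replicate 1 (8 in cKO and 10 in dcKO) or 2 (10 in dcKO), cKO replicate 1 (7) or 3 (8) and dcKO replicate 1 (9), and the highest without dcKO replicate 3 (23 in cKO, and 15 higher and 32 lower in dcKO). The higher counts in dcKO were 3 and 4 without Ctrl replicate 1 and 2. Without dcKO replicate 3, Vldlr in dcKO was 1.92 (edgeR adjusted p = 2.89e-04), Reln in dcKO -0.82 (0.0225) and Reln between the mutants -0.84 (0.0371). The ratio of the receptors and that of Reln to its markers kept their direction and moved by less than the spread between embryos.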
